A study of Homo sapiens with 18 samples.

Results

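RNA of the ovarian cancer line OVCAR8 was compared with RNA of the ovarian cancer line OVCAR4, both grown directly on plastic tissue culture dishes. The comparison takes every library that carries these labels, which gives 3 OVCAR8 libraries (replicates 4, 61 and 62) and 3 OVCAR4 libraries (replicates 42, 4 and 6), 6 of the 18 libraries deposited. OVCAR8 cells were at passage 30 to 40 and OVCAR4 cells at passage 45 to 55, so that the line and its passage cannot be told apart. Both lines carried GFP and were sham sorted, because the study also recovered GFP-positive cells of each line from a 3D culture of omental fibroblasts and mesothelial cells. The study describes 3 independent experiments per line. The column names inside the files spell OVCAR8 replicates 61 and 62 and OVCAR4 replicates 42 and 6 otherwise. What these spellings mark was not stated, so the spread between replicates may be partly technical. Each group is also 1 line, so the p-values measure the spread between these libraries and not the spread between tumors. Polyadenylated RNA was prepared with a stranded kit, and the deposited files hold raw read counts for each gene.

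Both lines are used as models of high-grade serous ovarian carcinoma (HGSOC), a tumor with Müllerian features that arises mostly from the epithelium of the fallopian tube. Epithelial cells hold together through E-cadherin and tight junctions and express keratins and transcription factors such as GRHL2 and OVOL2. Mesenchymal cells lose these contacts and express vimentin, fibronectin and N-cadherin. The repressors ZEB1 and ZEB2, which bind the E-box CAGGTG in promoters of epithelial genes, and the miR-200 family, which lowers ZEB1 and ZEB2 mRNA, are known to repress each other.

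The 5 miRNAs of the miR-200 family are shown because their host transcripts differed between the lines and because they fall into a pair of seed groups. Sequences are mature miRNAs of RefSeq (GRCh38.p14), with the seed in capitals. The first 3 share the seed AAUACUG and the last pair shares AACACUG.
hsa-miR-200b-3p: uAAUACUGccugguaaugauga
hsa-miR-200c-3p: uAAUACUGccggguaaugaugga
hsa-miR-429: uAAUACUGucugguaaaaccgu
hsa-miR-200a-3p: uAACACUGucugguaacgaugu
hsa-miR-141-3p: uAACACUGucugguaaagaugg

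Promoters of 3 epithelial genes that were lower in OVCAR8 are given as the 250 bases before the gene start in RefSeq (GRCh38.p14), 5′ to 3′ on the strand of the gene, with CAGGTG or its reverse complement CACCTG in capitals. CRB3, which encodes a polarity protein of the apical membrane, lies at chr19:6464021-6464270 on the plus strand and has 5 matches. AP1M2, a subunit of the epithelial clathrin adaptor that sorts cargo to the basolateral side, lies at chr19:10587313-10587562 on the minus strand and has 3. RAB25, a GTPase of epithelial membrane recycling, lies at chr1:156060910-156061159 on the plus strand and has 1.
CRB3: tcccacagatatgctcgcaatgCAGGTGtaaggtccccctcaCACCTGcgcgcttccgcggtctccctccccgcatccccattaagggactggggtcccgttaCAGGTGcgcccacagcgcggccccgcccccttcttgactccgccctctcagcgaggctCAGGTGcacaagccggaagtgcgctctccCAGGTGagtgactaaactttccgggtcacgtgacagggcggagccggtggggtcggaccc
AP1M2: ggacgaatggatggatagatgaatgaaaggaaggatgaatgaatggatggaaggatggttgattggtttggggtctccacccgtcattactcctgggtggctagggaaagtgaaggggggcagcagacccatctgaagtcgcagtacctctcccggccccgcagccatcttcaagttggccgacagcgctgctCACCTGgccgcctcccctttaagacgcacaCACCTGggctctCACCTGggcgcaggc
RAB25: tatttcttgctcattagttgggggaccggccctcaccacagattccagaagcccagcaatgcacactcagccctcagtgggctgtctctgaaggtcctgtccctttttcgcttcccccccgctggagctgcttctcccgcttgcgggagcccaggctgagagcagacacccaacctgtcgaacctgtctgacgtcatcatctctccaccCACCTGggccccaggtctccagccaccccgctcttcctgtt

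The same letters occur in 17.5% of all 27305 promoters of that table and in 16.4% of the 12309 that belong to genes tested here. They occur in 368 of 2609 promoters (14.1%) of genes at least 2-fold higher in OVCAR8 and in 607 of 2967 (20.5%) of genes at least 2-fold lower. Among the epithelial genes that were at least 2-fold lower and had an entry, 9 of 20 (45%) had a match. A match is a description of the letters and not a bound site.

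Total counts were 34407534, 29988250 and 34657829 in OVCAR8 replicates 4, 61 and 62, against 32478029, 35562937 and 32314170 in OVCAR4 replicates 42, 4 and 6. Levels are given as CPM, read counts scaled to a common depth with TMM library sizes, always in these orders of replicates. OVCAR8 replicates lay closer together than OVCAR4 replicates, with a median SD over genes of 0.093 against 0.197 on the log2 scale. OVCAR8 replicates 4 and 62 were the closest pair, and their counts still differed more than sampling noise gives (chi-square per degree of freedom 3.16). Genes of the mitochondrial genome took 2.04% to 2.29% of counts in OVCAR8 and 6.42% to 7.52% in OVCAR4. Whether the counting used strand was not stated, so reads of overlapping and antisense genes cannot be told apart.

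The lines differed in most genes. Of 19519 genes tested with the quasi-likelihood test of edgeR, 14582 (74.7%) passed an adjusted p of 0.05, of which 7163 (36.7%) were higher and 7419 (38.0%) lower in OVCAR8. With a change of at least 2-fold, 9215 genes (47.2%) were called, 4339 (22.2%) higher and 4876 (25%) lower, and the median log2 fold change over all genes was -0.02. The libraries of the lines did not overlap in 15410 genes (78.9%). Of the 534 list genes called at least 2-fold, 53 did not pass a test against a 2-fold change (glmTreat), among them COL4A1, COL4A2, COL6A2, ITGB4, MET, BRCA2, SNAI1, EVPL and LAMA1. Counts of list members are read beside these shares, and "called" means here adjusted p under 0.05 and at least 2-fold unless said otherwise. In bulk RNA, fewer cells of a type and less RNA per cell cannot be told apart.

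**Figure D1:**
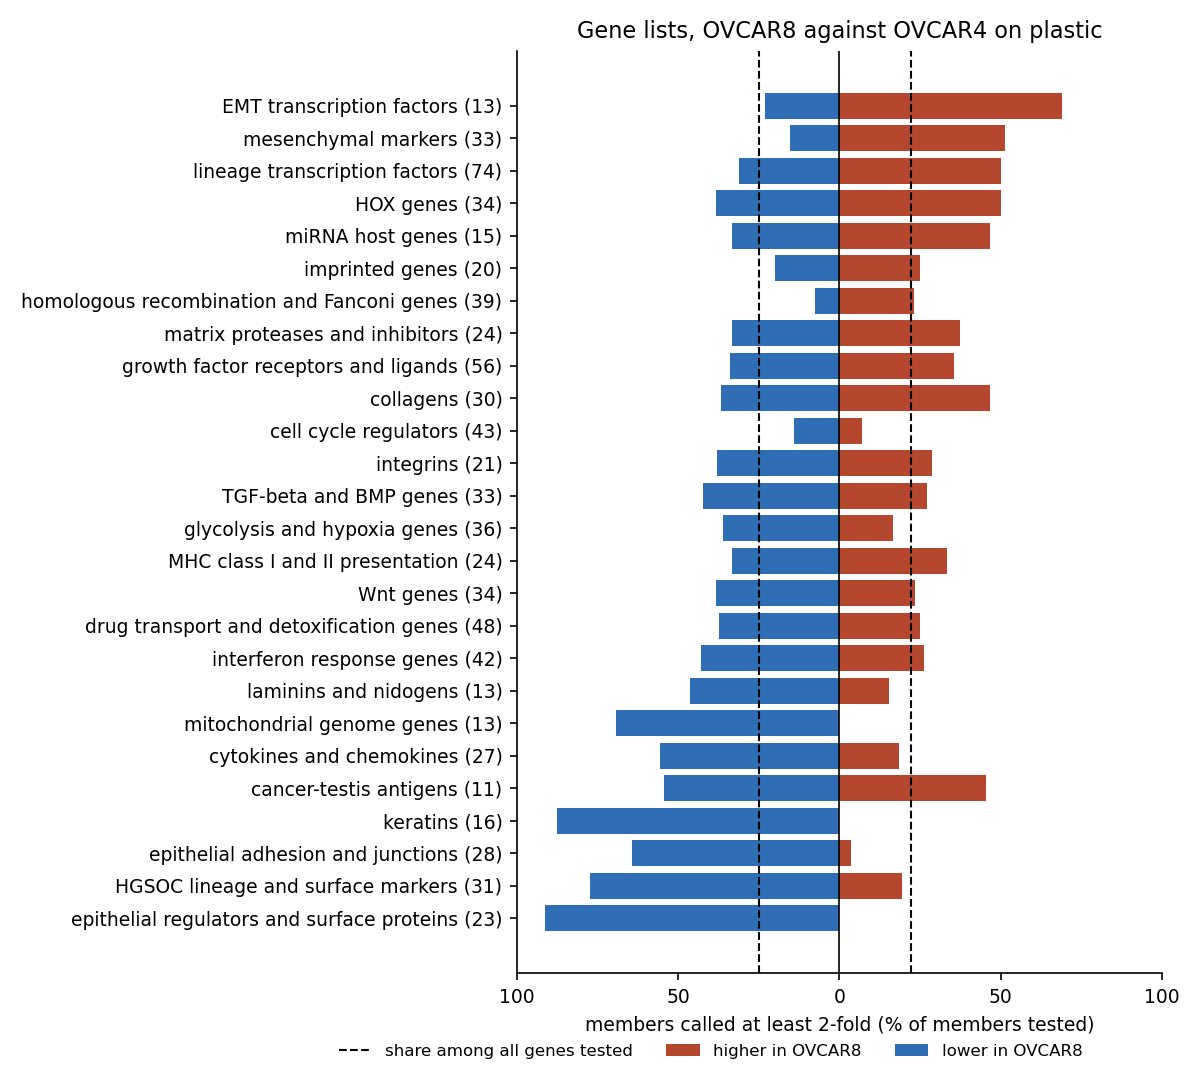
Share of the members of each gene list called at least 2-fold lower (left, blue) or higher (right, red) in OVCAR8 than in OVCAR4 on plastic, in percent of the members tested (number in brackets), with dashed lines at the shares among all genes tested (25% and 22.2%). Lists of epithelial regulators and keratins reach 91.3% and 87.5% on the left with no member on the right, and the EMT transcription factors reach 69.2% on the right.

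Epithelial genes were mostly lower in OVCAR8. Of 28 tested genes of epithelial adhesion and junctions, 18 (64.3%) were called lower and 1 (3.57%) higher, with a median log2 fold change of -3.19. CDH1, which encodes E-cadherin, stood at 0.712, 1.42 and 1.08 CPM in OVCAR8, against 160, 109 and 139 CPM in OVCAR4. The groups were far apart, with a log2 fold change of -7.00 ± 0.25 (SE, n = 3 each, edgeR adjusted p = 3.75e-08). EPCAM, an adhesion protein of epithelia, was present in both lines, at 15, 17.8 and 15.2 CPM in OVCAR8 and 404, 442 and 388 CPM in OVCAR4 (25.7-fold lower). CLDN7, a claudin of tight junctions, fell to 0.200, 0.259 and 0.170 CPM in OVCAR8, against 166, 209 and 173 CPM in OVCAR4. The claudins CLDN4 (257-fold) and CLDN3 (27.3-fold) were lower in the same way. Not every junction gene took part. The desmosomal genes DSP (adjusted p = 0.135) and DSG2 (adjusted p = 0.396) and OCLN, which encodes occludin (adjusted p = 0.54), did not pass the test. EVPL, which encodes envoplakin of the cornified envelope, was the member called higher, at 46.3, 41.1 and 41.8 CPM in OVCAR8 against 19, 18.4 and 21.9 CPM in OVCAR4 (log2 fold change 1.12 ± 0.12). In the test against a 2-fold change its adjusted p was 0.137.

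Of 23 tested epithelial regulators and surface proteins, 21 (91.3%) were called lower and none higher, with a median log2 fold change of -8.32. GRHL2, a transcription factor that holds the epithelial state, had no count in any OVCAR8 library and 51.8, 33.1 and 42.0 CPM in OVCAR4, at least 1420-fold lower by a floor of 3 counts over the group. ELF3, an epithelial ETS factor, stood at 0.0855, 0 and 0.113 CPM in OVCAR8 and at 103, 108 and 103 CPM in OVCAR4. ESRP1 and ESRP2 control the epithelial choice of exons. ESRP1 averaged 53-fold and ESRP2 4.50-fold lower in OVCAR8, and both groups were apart in every library. ST14, a membrane protease of epithelia, stood at 0.257, 0.162 and 0.113 CPM in OVCAR8 against 347, 324 and 284 CPM in OVCAR4 (log2 fold change -10.78 ± 0.22). The 3 genes whose promoters are printed differed in size: CRB3 was 224-fold lower, AP1M2 was 2.74-fold lower at 102, 109 and 104 CPM in OVCAR8 against 268, 333 and 263 CPM in OVCAR4, and RAB25 had 2 counts in all of OVCAR8 (OVCAR4 over OVCAR8 1620, 95% counting interval 449 to 13400). Intervals of this kind cover counting error only. The members that were not called are KLF5 (57.5 CPM in OVCAR8, 68.0 CPM in OVCAR4) and GRHL1 (3.71 CPM in OVCAR8, 4.78 CPM in OVCAR4).

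Keratins, the intermediate filaments of epithelial cells, split into a pair of patterns. Of 16 tested, 14 (87.5%) were called lower and none higher. KRT19 had no count in OVCAR8 and 392, 376 and 281 CPM in OVCAR4 (at least 11800-fold lower). KRT23 (at least 1070-fold) and KRT17 (79.3-fold) were lower as well, KRT17 being 140 CPM in OVCAR4 replicate 42 and 45.9 and 33.7 CPM in the others. KRT8 and KRT18 form the pair of simple epithelia. KRT8 stood at 1698, 1735 and 1670 CPM in OVCAR8 and at 1758, 1974 and 1542 CPM in OVCAR4, overlapping ranges with a log2 fold change of -0.05 ± 0.12 (adjusted p = 0.72). KRT18 was 1.5-fold lower and KRT7 2.58-fold lower. KRT6A, KRT6B and KRT6C and the hair keratins KRT81 and KRT86 share sequence with each other, and their single values are uncertain.

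**Figure D2:**
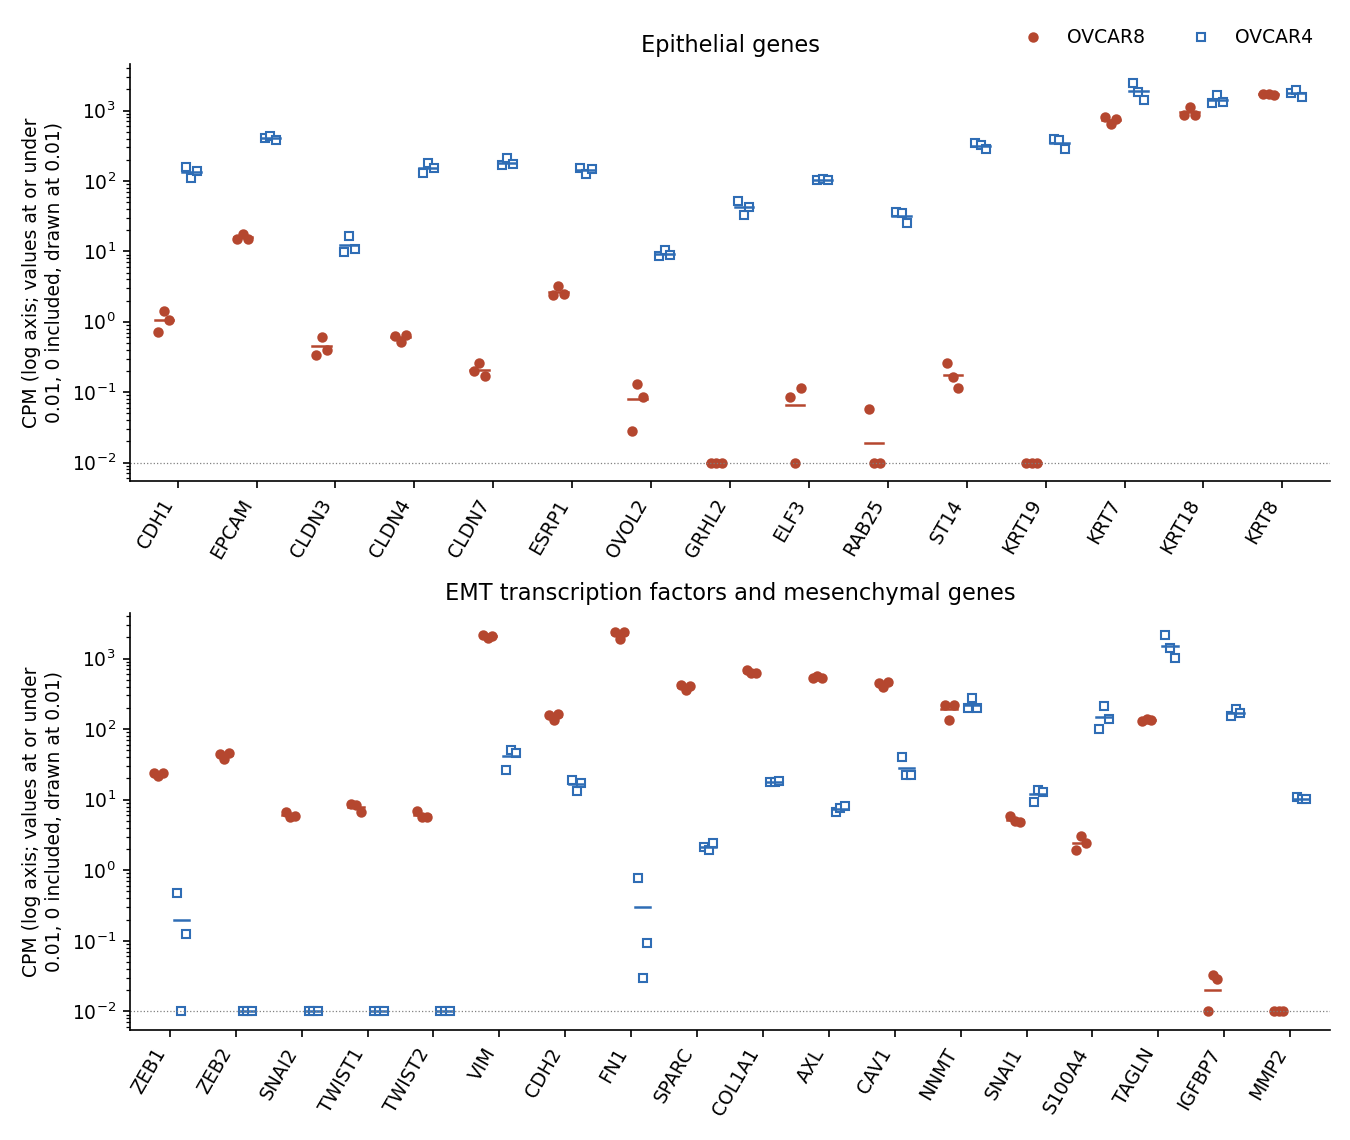
CPM of epithelial and mesenchymal genes in the 3 OVCAR8 and 3 OVCAR4 libraries on plastic (log axis, values at or under 0.01 drawn at 0.01), each point a library and each short bar a group mean. CDH1 lies at 0.712 to 1.42 CPM in OVCAR8 and 109 to 160 CPM in OVCAR4, and VIM at 1942 to 2156 CPM in OVCAR8 and 26.5 to 51.3 CPM in OVCAR4.

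Transcription factors of epithelial-mesenchymal transition (EMT) were mostly higher in OVCAR8, 9 of 13 tested (69.2%), with 3 lower and a median log2 fold change of 6.85. ZEB1 stood at 23.6, 21.4 and 23.6 CPM in OVCAR8, against 0.471, 0 and 0.124 CPM in OVCAR4 (log2 fold change 6.85 ± 0.48, adjusted p = 1.73e-06). ZEB2 stood at 44.2, 37.4 and 45.4 CPM in OVCAR8 and had no count in OVCAR4, at least 1390-fold higher. TWIST1 and TWIST2, helix-loop-helix factors of the mesenchyme, had no count in OVCAR4 either and were at least 259-fold and 200-fold higher. SNAI2, which encodes SLUG, was at least 198-fold higher, with 6.75, 5.59 and 5.80 CPM in OVCAR8. The related SNAI1 was lower instead, at 5.79, 5.01 and 4.81 CPM in OVCAR8 and 9.23, 13.8 and 12.7 CPM in OVCAR4 (adjusted p = 0.129 in the glmTreat test against 2-fold). PRRX2, a homeobox factor of mesenchyme, had 2 counts in OVCAR8 and 7.78 to 11.3 CPM in OVCAR4, and KLF8 was 5.41-fold lower. PRRX1, the paralog of PRRX2, ran the other way, with 0.456, 0.550 and 0.538 CPM in OVCAR8 and no count in OVCAR4.

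Mesenchymal markers were more mixed: 17 of 33 (51.5%) were called higher and 5 (15.2%) lower. VIM stood at 2156, 1942 and 2069 CPM in OVCAR8, against 26.5, 51.3 and 45.2 CPM in OVCAR4 (50.2-fold, adjusted p = 1.24e-07). FN1, fibronectin, stood at 2387, 1916 and 2387 CPM in OVCAR8 and at 0.785, 0.0297 and 0.0930 CPM in OVCAR4, with a log2 fold change of 12.86 ± 0.56. OVCAR4 replicate 42 held most of the few FN1 reads of that line. AXL, a receptor kinase linked with the mesenchymal state, was 72.1-fold higher, with 523, 571 and 522 CPM in OVCAR8 and 6.72, 7.54 and 8.18 CPM in OVCAR4. SPARC, a matrix glycoprotein (184-fold), CDH2, N-cadherin (9.20-fold), CAV1, caveolin (15.2-fold), LOXL2, a collagen crosslinker (21.9-fold), and CDH13, T-cadherin (831-fold), were also higher. The members that were lower are IGFBP7, MMP2, S100A4, TAGLN and THY1, of which TAGLN, an actin-binding protein of smooth muscle, stood at 131, 137 and 134 CPM in OVCAR8 against 2125, 1394 and 1022 CPM in OVCAR4. S100A4 was 60.9-fold lower. THY1, a surface protein of fibroblasts, was low in both lines, with 9 counts in OVCAR8 and 74 in OVCAR4, and it was not called when all 18 libraries shared 1 edgeR fit (adjusted p = 0.0937). MMP2 had no count in OVCAR8 and 10.8, 10.1 and 10.1 CPM in OVCAR4. IGFBP7, a secreted binding protein, had 2 counts in OVCAR8 and 151, 193 and 168 CPM in OVCAR4. NNMT and ITGA5 did not pass the test (adjusted p = 0.382 and 0.0546), and the call of ITGA5 changed with the scaling.

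Host transcripts of the miRNAs printed above were silent in OVCAR8. MIR200CHG, the host of miR-200c and miR-141 on chromosome 12, had no count in OVCAR8 and 2.42, 3.98 and 3.04 CPM in OVCAR4 (at least 107-fold lower). The loci of miR-200b, miR-200a and miR-429 on chromosome 1 held 0 counts in OVCAR8 and 70 in OVCAR4 in all. MIR205HG, host of another miRNA that targets ZEB1, had 0 counts in OVCAR8 and 43 in OVCAR4. Such reads come from long transcripts, and mature miRNAs were not measured. Of 15 tested host genes, 7 (46.7%) were called higher and 5 (33.3%) lower. MIR503HG on chromosome X stood at 64.9, 68.0 and 65.3 CPM in OVCAR8, against 5.21, 7.39 and 6.73 CPM in OVCAR4. MIR155HG (17.7-fold) and the neuronal host MIR9-3HG (29.0, 29.9 and 28.9 CPM in OVCAR8 and 1 count in OVCAR4) were higher, and MIR34AHG, host of miR-34a, was 48.9-fold lower.

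Markers of HGSOC lineage and surface were lower in OVCAR8 in 24 of 31 tested (77.4%) and higher in 6 (19.4%). PAX8, the Müllerian transcription factor, was present in both lines, at 56.1, 62.1 and 54.7 CPM in OVCAR8 and 166, 187 and 180 CPM in OVCAR4 (log2 fold change -1.62 ± 0.10, adjusted p = 8.78e-07). SOX17, its partner in the fallopian tube, had 2 counts in OVCAR8 and 131, 166 and 132 CPM in OVCAR4. EMX2, a homeobox gene of the Müllerian tract, had no count in OVCAR8 and 75.4, 119 and 111 CPM in OVCAR4 (at least 3460-fold lower). MUC16, the gene of the serum marker CA125, had no count in OVCAR8 and 60.1, 149 and 144 CPM in OVCAR4 (at least 4000-fold lower). WFDC2, the gene of the serum marker HE4, was 190-fold lower, SLPI, a secreted protease inhibitor, 1680-fold, and FOLR1, the folate receptor, 3.99-fold. SLC34A2, the phosphate transporter NaPi2b, had no count in OVCAR8 and 591, 374 and 473 CPM in OVCAR4. The surface protein mesothelin ran against most of the list: MSLN stood at 122, 129 and 109 CPM in OVCAR8 and 6.03, 5.85 and 4.68 CPM in OVCAR4 (21.8-fold higher). NR2F2, an orphan nuclear receptor of stroma, was 8.31-fold higher, and PGR was at 3.93, 4.46 and 4.78 CPM in OVCAR8 with 2 counts in OVCAR4. ESR1 was lower, with 2 counts in OVCAR8 and 1.29, 1.28 and 1.86 CPM in OVCAR4. WT1, usual in serous tumors, lay under the count filter, with 0.129 to 0.255 CPM in OVCAR8 and 0 to 0.0314 CPM in OVCAR4.

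HOX genes, which give cells their position along the body axis and along the reproductive tract, differed by cluster. All 8 tested genes of the C cluster and all 7 of the D cluster were called higher in OVCAR8, and 8 of 9 tested genes of the B cluster were called lower with none higher. In the A cluster, 2 of 10 were higher and 5 lower. HOXC10 stood at 20.4, 20.2 and 20.9 CPM in OVCAR8 and at 0.377, 0.297 and 0.0930 CPM in OVCAR4 (80.2-fold). HOXD13, the last gene of its cluster, stood at 5.90, 6.59 and 6.43 CPM in OVCAR8 with no count in OVCAR4 (at least 205-fold), and HOXD8 was at least 154-fold higher. HOXB8 stood at 0.0855, 0.129 and 0.0566 CPM in OVCAR8, against 15.9, 30.8 and 25.4 CPM in OVCAR4, and HOXB9 was 8.27-fold lower. HOXB7 was 1.62-fold lower, which is the member of the B cluster that passed the test under 2-fold. Genes of a cluster lie side by side and share regulation, so the members of a cluster are not independent. HOXA9, a gene of the fallopian tube, was 5.01-fold lower, and the HOX cofactors moved apart: MEIS1 (21.3-fold) was lower and MEIS2 was higher, with 18.1, 17.6 and 17.9 CPM in OVCAR8 and 1 count in OVCAR4.

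**Figure D3:**
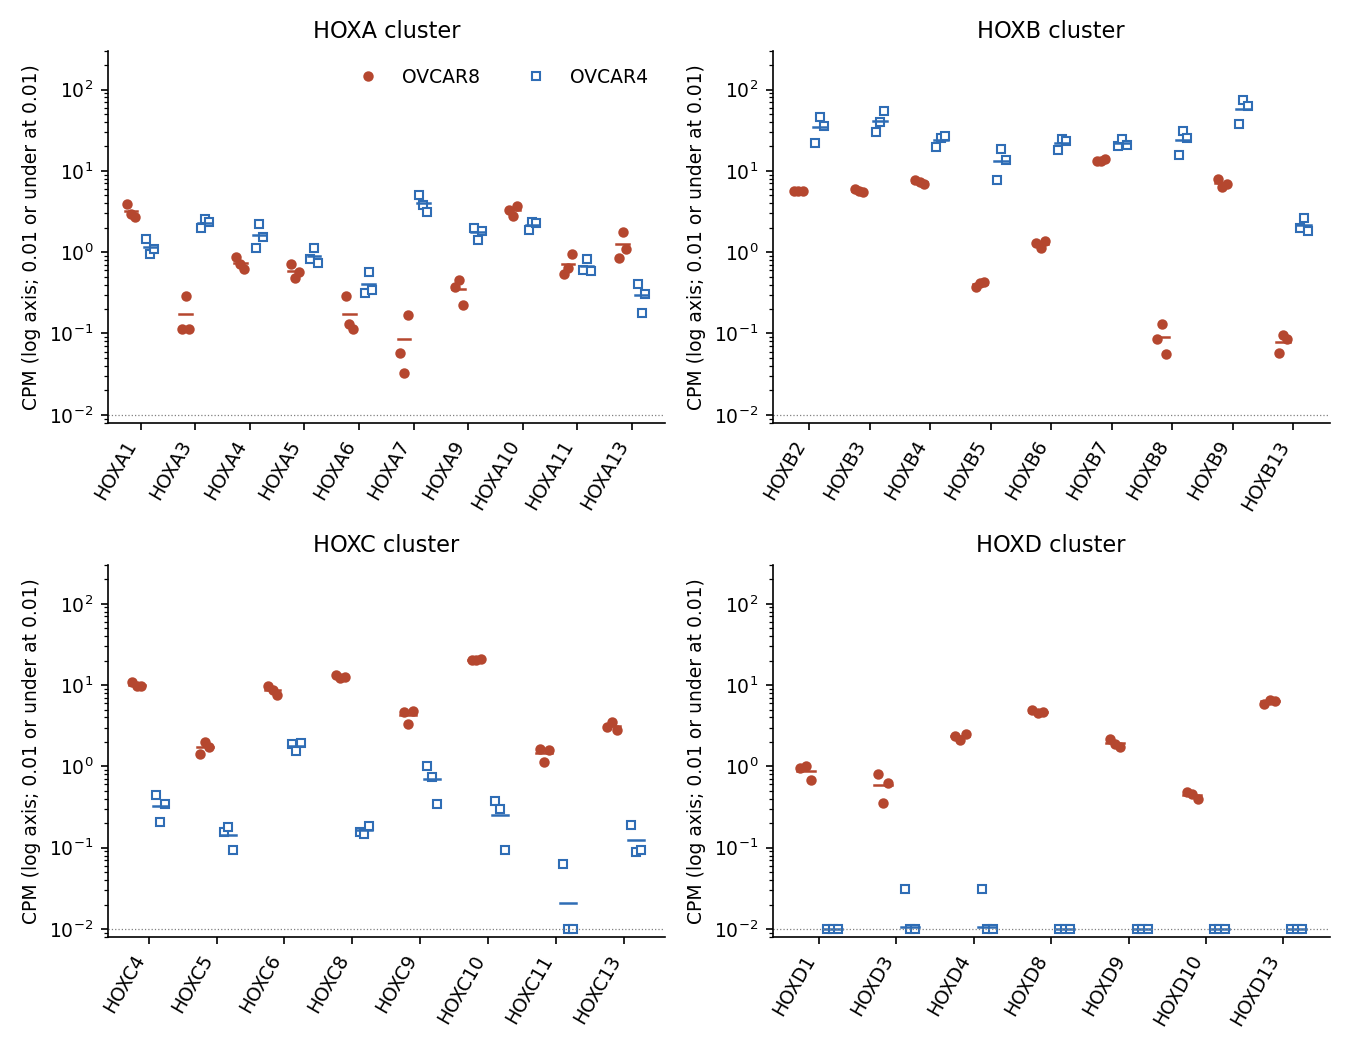
CPM of the tested HOX genes in the OVCAR8 and OVCAR4 libraries on plastic (log axis, lowest values drawn at a floor), with a panel for each cluster. Each point is a library and each short bar a group mean. C and D cluster genes are higher in OVCAR8, with median log2 fold changes over OVCAR4 of 4.78 and 7.88. B cluster genes are lower, with a median of -3.05, and A cluster genes differ in both directions, with a median of -0.87.

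Other transcription factors of lineage showed the same mixture, with 37 of 74 (50%) called higher and 23 (31.1%) lower. FOXD1, a forkhead factor of kidney stroma, stood at 187, 176 and 184 CPM in OVCAR8 and had no count in OVCAR4 (at least 5950-fold). TBX18, a factor of mesothelium and stroma, stood at 41.8, 40.9 and 41.4 CPM in OVCAR8 with 3 counts in OVCAR4. SOX4 was 15.8-fold lower, at 8.23, 9.47 and 9.23 CPM in OVCAR8 and 120, 145 and 161 CPM in OVCAR4. GATA6 did not pass the test (adjusted p = 0.14), being 7.38 CPM in OVCAR4 replicate 42 and under 2 CPM in the other OVCAR4 libraries.

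Genes of the extracellular matrix differed in kind rather than in one direction. Collagens were called higher in 14 and lower in 11 of 30 tested. COL1A1 stood at 679, 630 and 618 CPM in OVCAR8, against 17.9, 17.9 and 18.1 CPM in OVCAR4 (35.7-fold, adjusted p = 5.34e-09). Its partner chain in collagen I ran the other way: COL1A2 had no count in OVCAR8 and 2.01, 2.58 and 2.36 CPM in OVCAR4. COL5A1, which joins collagen I in fibrils, was 189-fold lower. In collagen IV, the network of basement membranes, COL4A1 (2.25-fold) and COL4A2 (2.28-fold) were lower, whereas COL4A5 had 13.6, 14 and 13.5 CPM in OVCAR8 and no count in OVCAR4 (at least 446-fold). Collagen VI chains COL6A1 (2.41-fold) and COL6A2 (2.26-fold) were higher, and COL18A1, the source of endostatin, was 9.25-fold lower. COL4A1, COL4A2 and COL6A2 did not pass the glmTreat test against 2-fold (adjusted p = 0.212, 0.0763 and 0.13). Of 13 tested laminins and nidogens, 2 were called higher and 6 lower. LAMA3, a chain of epithelial basement membranes, stood at 1.2, 0.614 and 0.877 CPM in OVCAR8 and 1650, 661 and 897 CPM in OVCAR4, but LAMB3, its partner in laminin-332, did not pass the test (adjusted p = 0.108). LAMC3 was 7.90-fold higher. The other member called higher, LAMA1, was not called without OVCAR4 replicate 4 (adjusted p = 0.0673), without the count filter (0.0963) or by glmTreat against 2-fold (0.0796).

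Integrins, the receptors of these proteins, were called higher in 6 and lower in 8 of 21. The subunit ITGB6, which pairs with alpha V on epithelia, stood at 0, 0.129 and 0.0849 CPM in OVCAR8 and 85.9, 45.1 and 63.8 CPM in OVCAR4. ITGB3 was 160-fold lower and ITGB4, of hemidesmosomes, 2.36-fold lower (adjusted p = 0.127 by glmTreat against 2-fold). ITGA4, a fibronectin receptor subunit, stood at 13.5, 13.4 and 13.5 CPM in OVCAR8 with 1 count in OVCAR4, and ITGA6 was 6.77-fold higher. Among matrix proteases and their inhibitors, 9 of 24 were higher and 8 lower. MMP7, a protease of glandular epithelia, had no count in OVCAR8 and 390, 976 and 831 CPM in OVCAR4, at least 24900-fold lower. TIMP3, an inhibitor of metalloproteinases, had no count in OVCAR8 and 76.0, 33.8 and 35.1 CPM in OVCAR4. MMP14, the membrane collagenase, was 4.81-fold higher, and PLAT, tissue plasminogen activator, 35.2-fold higher. PLAU stood at 48.8, 46.5 and 48.1 CPM in OVCAR8 and 49.5, 49.3 and 45.3 CPM in OVCAR4, within each other's range.

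Receptors and ligands of growth factors were called higher in 20 and lower in 19 of 56. EGFR stood at 253, 231 and 253 CPM in OVCAR8, against 100, 56.4 and 86.5 CPM in OVCAR4 (3.03-fold), while ERBB2 (adjusted p = 0.46) and ERBB3 (adjusted p = 0.229) did not pass the test. FGF receptors were split by type. FGFR1 was 3.11-fold higher, and FGFR2, whose main splice form in epithelia ESRP1 governs, had 1 count in OVCAR8 and 84.0, 69.2 and 85.0 CPM in OVCAR4. The ligand FGF2 stood at 79.5, 45.5 and 84.5 CPM in OVCAR8 and 0.408, 0.148 and 0.279 CPM in OVCAR4 (251-fold). PDGFRB was 310-fold higher, whereas its ligand gene PDGFB was 22.6-fold lower. MET was 2.25-fold lower (adjusted p = 0.176 by glmTreat against 2-fold) and EPHA1, an ephrin receptor, 397-fold lower. VEGFA, the endothelial growth factor, stood at 13.4, 14.6 and 12.4 CPM in OVCAR8, against 109, 133 and 169 CPM in OVCAR4.

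Ligands of the TGF-beta and BMP family were mostly lower, 7 of 12 called, with 2 higher and a median log2 fold change of -3.20. BMP7 had 1 count in OVCAR8 and 200, 256 and 241 CPM in OVCAR4. GDF15, a stress-induced ligand, had no count in OVCAR8 and 52.5, 71.8 and 53.6 CPM in OVCAR4. BMP4 was 7.48-fold lower, INHBA, the activin subunit, was 36.7-fold higher and TGFB2 3.18-fold higher. Of the 21 receptors, inhibitors and targets, 7 were higher and 7 lower. GREM1, a secreted BMP antagonist, stood at 166, 128 and 175 CPM in OVCAR8 against 11.9, 3.95 and 4.93 CPM in OVCAR4 (22.6-fold). The BMP target genes ID1 and ID2, inhibitors of helix-loop-helix factors, were 4.81-fold and 52.7-fold lower. TGFBR2 was 6.77-fold lower.

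Wnt genes were called higher in 8 and lower in 13 of 34. WNT7A, the Müllerian Wnt ligand, had no count in OVCAR8 and 259, 382 and 356 CPM in OVCAR4 (at least 11300-fold lower). WNT5B stood at 25.5, 25.7 and 24.2 CPM in OVCAR8 and 0.126, 0.0594 and 0.155 CPM in OVCAR4 (222-fold higher). Secreted antagonists were not of one direction. DKK1 stood at 180, 182 and 183 CPM in OVCAR8 with no count in OVCAR4, DKK3 was 7.10-fold higher, and SFRP1 had 1 count in OVCAR8 and 13.7, 13.3 and 17.4 CPM in OVCAR4. RNF43, which removes Wnt receptors from the surface, was 60.8-fold lower, and its substrate FZD5 15.7-fold lower, while FZD1 was 16.1-fold higher.

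Cytokines and chemokines were lower in 15 of 27 tested (55.6%) and higher in 5 (18.5%), with a median log2 fold change of -2.54. CXCL1 (108-fold) and CXCL8 (63.9-fold), which draw neutrophils, were lower, CXCL8 at 0.285, 0.291 and 0.340 CPM in OVCAR8 and 31.8, 11.8 and 15 CPM in OVCAR4. CCL2, which draws monocytes, had no count in OVCAR8 and 37.7, 40.7 and 35.5 CPM in OVCAR4 (at least 1280-fold lower). IL7R, the receptor of interleukin 7, was the largest difference in the other direction, with 391, 305 and 412 CPM in OVCAR8 and 1 count in OVCAR4. IL18 stood at 252, 267 and 277 CPM in OVCAR8, against 39.1, 12.7 and 11 CPM in OVCAR4 (12.7-fold), and CXCR4, the receptor of CXCL12, was 26.3-fold higher. IL6 (adjusted p = 0.766) and IL32 (adjusted p = 0.341) did not pass the test. IL32 was 22.0 CPM in OVCAR4 replicate 42 and 11.4 and 6.57 CPM in the others, and without replicate 42 its adjusted p was 0.00298.

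Of 42 interferon response genes, 18 (42.9%) were called lower and 11 (26.2%) higher. B2M, the light chain of MHC class I, stood at 16.1, 18.2 and 18.2 CPM in OVCAR8, against 471, 428 and 364 CPM in OVCAR4 (log2 fold change -4.59 ± 0.14, adjusted p = 1.8e-08). The heavy chain gene HLA-B was 4.42-fold higher, although HLA genes share reads and differ in allele, which makes their values uncertain. Of 8 tested class II genes, 4 were called higher and 4 lower. HLA-DRB1 stood at 12.8, 12.4 and 10.8 CPM in OVCAR8 with no count in OVCAR4, whereas HLA-DRA had 1 count in OVCAR8 and none in OVCAR4. CD74, the invariant chain, was 25.9-fold lower and HLA-DMB 13.1-fold lower. CIITA, their shared activator, lay under the filter, with 1 count in OVCAR8 and 32 in OVCAR4. In DNA sensing, CGAS was 3.49-fold higher and STING1, which acts after it, was 7.81-fold lower, at 30.2, 38.9 and 31.2 CPM in OVCAR8 and 224, 301 and 259 CPM in OVCAR4. MX2 stood at 55.1, 61.8 and 57.3 CPM in OVCAR8 and 0.157, 0.178 and 0.0620 CPM in OVCAR4 (439-fold higher), whereas its paralog MX1 was lower.

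Of 43 regulators of the cell cycle, 3 (6.98%) were called higher and 6 (14%) lower, beside 22.2% and 25% of all genes. Without OVCAR4 replicate 42, 5 were called higher. CCNE1, cyclin E1, stood at 39.9, 36.6 and 39.4 CPM in OVCAR8, against 203, 226 and 206 CPM in OVCAR4 (5.48-fold lower, adjusted p = 7.19e-08). RB1, the retinoblastoma gene, was 4.26-fold lower. CDKN2A and CDKN1A did not pass the test (adjusted p = 0.611 and 0.187), MYC was 1.44-fold higher, and CCND2 had no count in either line. Of 39 genes of homologous recombination and the Fanconi pathway, 9 (23.1%) were called higher, near the 22.2% of all genes, and 3 (7.69%) lower. A test against a 2-fold change called 5 of them higher and did not call BRCA2 (glmTreat adjusted p = 0.122). ATM, the kinase of the break response, stood at 124, 111 and 125 CPM in OVCAR8 and 22.7, 17.5 and 26.5 CPM in OVCAR4 (5.40-fold). FANCA (3.41-fold), FANCF (2.78-fold), FANCE (2.38-fold) and BRCA2 (2.32-fold) were higher, ATR (2.60-fold) and CHEK2 (3.29-fold) were lower, and BRCA1 did not pass the test (adjusted p = 0.119).

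Genes of drug transport and detoxification were called higher in 12 and lower in 18 of 48. ABCB1, the drug pump, stood at 2.56, 3.78 and 2.86 CPM in OVCAR8 and had no count in OVCAR4 (at least 99.1-fold). SLFN11, which blocks replication after DNA damage, was 8.56-fold higher, at 34.5, 29.6 and 39.7 CPM in OVCAR8 and 4.33, 3.03 and 4.77 CPM in OVCAR4. GSTP1, a glutathione transferase, was 9.29-fold lower, at 370, 392 and 356 CPM in OVCAR8 and 2599, 4615 and 3164 CPM in OVCAR4. The metal-binding genes MT1E (16.0-fold) and MT2A (7.27-fold) were higher.

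Of the 13 protein genes of the mitochondrial genome, 9 (69.2%) were called lower and none higher. MT-CO1 stood at 4613, 5268 and 4513 CPM in OVCAR8, against 11340, 12390 and 11940 CPM in OVCAR4, and MT-CO3 was 5.74-fold lower. MT-ND6, the gene of the other strand, was 1.57-fold higher, at 262, 299 and 248 CPM in OVCAR8 and 144, 202 and 169 CPM in OVCAR4. Glycolytic genes were called higher in 4 (17.4%) and lower in 6 (26.1%) of 23, near the 22.2% and 25% of all genes. Hypoxia genes were called higher in 2 (15.4%) and lower in 7 (53.8%) of 13. SLC2A3, a glucose transporter, was 156-fold higher and GPI, the isomerase of glucose phosphate, 3.87-fold lower. ADM, adrenomedullin, was 17.0-fold higher and CA12, a carbonic anhydrase, 41.6-fold lower.

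Many genes were used by 1 line and silent in the other. With no count in any OVCAR4 library and at least 1 CPM on average in OVCAR8 there were 201 genes, 147 of them protein coding, and 42 reached 10 CPM. In the other direction there were 235 genes, 173 of them protein coding, and 66 reached 10 CPM in OVCAR4. CTCFL, a cancer-testis paralog of CTCF, stood at 99.8, 114 and 103 CPM in OVCAR8 (at least 3430-fold), the antisense transcript AFAP1-AS1 at 140, 126 and 142 CPM, and NDN, an imprinted gene, at 46.1, 48.3 and 46.3 CPM. GLUL, glutamine synthetase, was 173, 172 and 191 CPM in OVCAR4 with no count in OVCAR8, at least 6040-fold lower. PDCD10, a gene of cerebral cavernous malformation, was 144, 135 and 138 CPM in OVCAR4 with no count in OVCAR8, at least 4690-fold lower. Cancer-testis antigens were divided too: the near-identical XAGE1A and XAGE1B stood at 28.0 to 30.3 CPM in OVCAR8 with no count in OVCAR4, and MAGEA3 had no count in OVCAR8 and 4.11, 4.28 and 3.47 CPM in OVCAR4. PRAME was present in both lines and 2.57-fold higher. Pairs such as XAGE1A and XAGE1B or MAGEA3 and MAGEA6 share reads, and their separate values are uncertain.

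Silent genes also occurred in runs. Runs of at least 3 successive coding genes, each at or under 0.1 CPM on average in 1 line and at or over 1 CPM in the other, were counted among 13703 coding genes in chromosome order, a description added after the files were seen. Coding genes outside these 13703 are skipped, as between KLK10 and KLK13 below, so a run need not be an unbroken stretch. There were 8 such runs low in OVCAR8, the longest of 6 genes, and 11 low in OVCAR4, the longest of 9. On chromosome 3 (167683298 to 169663775, GRCh38), PDCD10, SERPINI1, GOLIM4 and MECOM had together 3 counts in OVCAR8, against average levels of 139, 1.90, 81.3 and 133 CPM in OVCAR4. The run of 6 genes on chromosome 19 (50958631 to 51065114) holds the kallikrein proteases KLK6, KLK7, KLK8, KLK10 and KLK13, of which KLK10 averaged 0.0108 CPM in OVCAR8 and 40.4 CPM in OVCAR4. FLI1, an ETS factor, led a run of 4 on chromosome 11 (128686535 to 128943399) with 0.05 CPM in OVCAR8 and 45.5 CPM in OVCAR4. Low in OVCAR4, EPB41L3 led a run of 3 on chromosome 18, at 173 CPM in OVCAR8 and 0.0198 CPM in OVCAR4. The run of 9 genes on chromosome X is the CT45A family, whose members share sequence, so it may count the same reads more than once.

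The direction of the difference varied by chromosome as well. Among nuclear chromosomes, the median log2 fold change was lowest on 21 (-0.59), 7 (-0.58), 19 (-0.48) and 20 (-0.40) and highest on chromosomes 4 (0.39), 9 (0.37) and 13 (0.35). Without the filter on low counts the same 4 chromosomes were lowest, but the order of the highest changed, with 9 (0.32), 15 (0.24) and 4 (0.23) at the top and 13 at 0.22. On chromosome 7, 167 of 989 genes were called higher and 400 lower, and the median on the 3D culture was -0.60. Among stretches of 50 neighbouring genes tested, the lowest median lay on chromosome 7 between KMT2E and ANKRD7 (104940943 to 118496171), at -2.44 on 3D and -2.45 on plastic, with 92% of its genes below 0 on plastic. Another lay on chromosome 19 between VRK3 and ZNF880 (49976468 to 52385795), the stretch of the kallikreins, at -2.07 on 3D and -2.22 on plastic. The highest medians lay among zinc finger genes of chromosome 19 between ZNF506 and ZNF726 (19785839 to 23945159), at 2.19 on 3D and 2.61 on plastic, and at the start of chromosome 5 between PLEKHG4B and OTULIN (92168 to 14699850), at 1.79 on 3D and 1.68 on plastic. Zinc finger genes of 1 cluster share sequence. DNA copy number was not measured, and its part in these values was not tested.

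**Figure D4:**
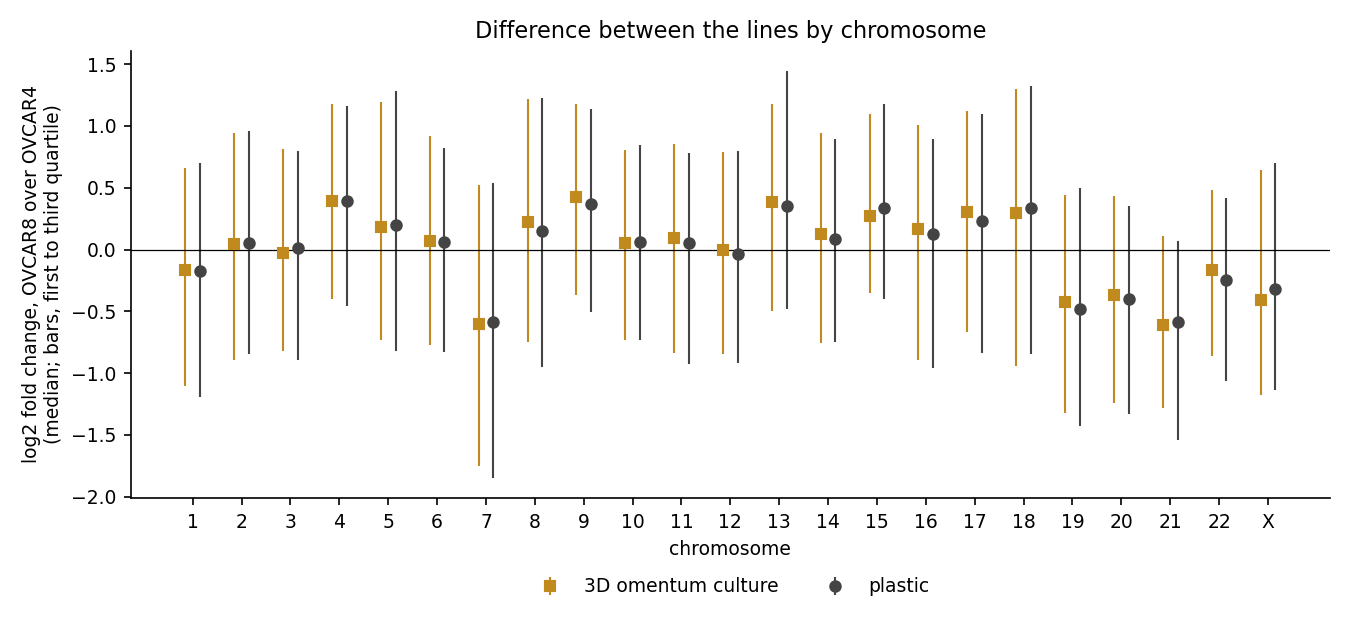
Median log2 fold change of OVCAR8 over OVCAR4 for the genes of each chromosome (bars from the first to the third quartile), on the 3D omentum culture (squares) and on plastic (circles). Chromosomes 21, 7 and 19 lie lowest of the nuclear chromosomes in both cultures, with -0.60 on 3D and -0.58 on plastic for chromosome 7, and chromosomes 4 and 9 above 0.

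Libraries of the 3D culture, which the comparison on plastic did not use, gave the same contrast in other cells of the same lines. Of 20341 genes tested there, 15074 (74.1%) passed the test and 9277 (45.6%) were called, with 4541 (22.3%) called at least 2-fold higher and 4736 (23.3%) lower. Of the 4339 genes higher on plastic, 4276 were tested on 3D, 4226 of these had the same sign, 3439 (80.4%) were called in the same direction and 4 in the opposite direction. Of the 4876 genes lower on plastic, 4747 were tested on 3D, 4656 had the same sign, 3780 (79.6%) were called in the same direction and 25 in the opposite direction. Without the 2-fold rule on 3D, 4042 and 4308 passed the test there in the same direction and 9 and 35 in the opposite direction. CDH1 had a log2 fold change of -6.66 on 3D and -7.00 on plastic, and AXL 6.07 on 3D and 6.17 on plastic. FN1 was 3.85 on 3D and 12.86 on plastic, SPARC 2.53 on 3D and 7.52 on plastic, and MMP2 -0.32 on 3D and -11.42 on plastic. Beside these matrix genes, the summed level of the 10 fibroblast markers was 713 to 3030 CPM in OVCAR8 on 3D and 649 to 710 CPM in OVCAR8 on plastic, and 145 to 1230 CPM in OVCAR4 on 3D and 20.9 to 21.5 CPM in OVCAR4 on plastic. Of these markers DCN, FAP and POSTN had no count in OVCAR8 on plastic, where COL1A1 (642 CPM) gave most of the sum, and the part of these markers in the 3D values was not tested.

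The difference between the lines itself differed between the cultures in 2035 of 20991 genes (9.69%) by the interaction test of edgeR. The value was higher on 3D in 884 of these genes, which is 4.21% of the 20991. This count depended on single libraries and lay between 759 and 3431 when a library was left out. Of the 44 genes called on plastic that passed the test on 3D in the opposite direction at any fold, 15 belong to the lists, and 13 of these are genes known to respond to interferon. The lists hold interferon response and MHC genes by choice, so this share does not describe the 44 genes as a whole. BST2 and OAS1 were under 2-fold on 3D (log2 fold change 0.81 and 0.78), and the other 13 list members reached it. IFI27 stood on 3D at 453, 525 and 528 CPM in OVCAR8 and 39.6, 35.2 and 34.9 CPM in OVCAR4, and on plastic at 4.53, 5.33 and 5.09 CPM in OVCAR8 and 23, 14.3 and 11 CPM in OVCAR4 (interaction 5.45 on the log2 scale, adjusted p = 1.74e-07). MX1, an antiviral GTPase, stood on 3D at 500, 281 and 275 CPM in OVCAR8 and 19.2, 16.7 and 16.7 CPM in OVCAR4, and on plastic at 2.51, 3.14 and 2.69 CPM in OVCAR8 and 10.4, 7.63 and 7.44 CPM in OVCAR4. In both genes OVCAR8 lay above OVCAR4 in every 3D library and below it in every plastic library. Both were picked for opposite directions in these libraries, so this order and the interaction result were close to fixed in advance. Summed leukocyte markers were 87.7 to 99.1 CPM in OVCAR8 on 3D and 20.5 to 22.9 CPM in OVCAR8 on plastic, against 24.0 to 38.5 CPM in OVCAR4 on 3D and 10.4 to 18.5 CPM in OVCAR4 on plastic. Nearly all of each sum was CD68, a lysosomal protein that other cells also make, with means of 89.3 CPM in OVCAR8 on 3D and 21.1 CPM in OVCAR8 on plastic, and 27.5 CPM in OVCAR4 on 3D and 12.6 CPM in OVCAR4 on plastic. PTPRC, the gene of the pan-leukocyte protein CD45, averaged 0.00935 CPM in OVCAR8 on 3D and had no count in OVCAR8 on plastic, and CD3E, of T cells, had no count in OVCAR8 in either culture. The myeloid markers were low and not of one direction. CD14 and ITGAM were higher in OVCAR8 than in OVCAR4 on 3D (edgeR adjusted p = 0.00369 and 0.00049). CSF1R was lower in OVCAR8 on 3D, at 0.406 CPM on average against 1.49 CPM in OVCAR4 (edgeR adjusted p = 0.000489). LYZ averaged 0.0179 CPM in OVCAR8 and 0.113 CPM in OVCAR4 on 3D. CD14 averaged 0.830 CPM in OVCAR8 and 0.301 CPM in OVCAR4 on 3D, and 0.296 CPM in OVCAR8 and 0.407 CPM in OVCAR4 on plastic (interaction 1.89 on the log2 scale, edgeR adjusted p = 0.0225). ITGAM averaged 0.738 CPM in OVCAR8 and 0.0291 CPM in OVCAR4 on 3D, and 0.247 CPM in OVCAR8 and 0.0622 CPM in OVCAR4 on plastic (interaction adjusted p = 0.187). The mitochondrial share of counts also moved with the culture in OVCAR8, at 0.895% to 1.38% in OVCAR8 and 6.80% to 7.38% in OVCAR4 on 3D, against 2.04% to 2.29% in OVCAR8 and 6.42% to 7.52% in OVCAR4 on plastic. The median log2 fold change of the 33 tested genes of chromosome M, of which the protein genes are only a part, was -2.47 on 3D and 0.03 on plastic. Over the 13 protein genes alone, the median on plastic was -1.56. The part of these markers and of this share in the interaction was not tested.

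**Figure D5:**
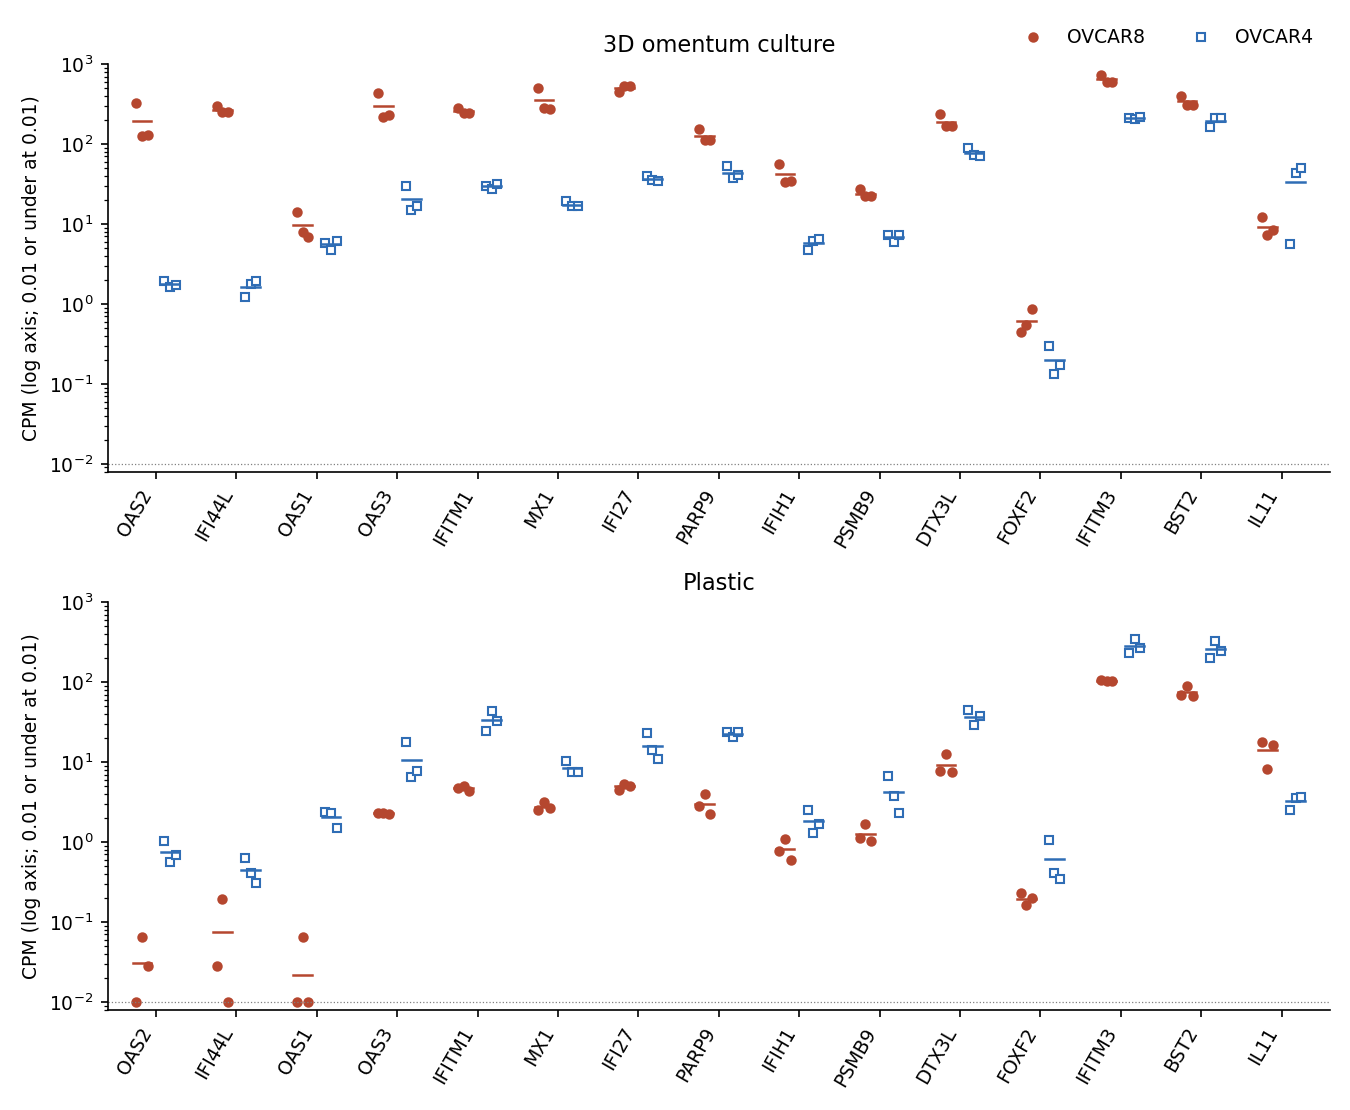
CPM (log axis, values at or under 0.01 drawn at 0.01) of the 15 list members that passed the test in opposite directions on the 3D omentum culture (upper panel) and on plastic (lower panel), each point a library and each short bar a mean. OVCAR8 lies above OVCAR4 on 3D and below it on plastic for IFI27 (453 to 528 CPM against 34.9 to 39.6 CPM on 3D) and 13 other genes. IL11 went the other way, with 3D libraries that overlap.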

How the data were processed

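The authors trimmed reads with Trimmomatic 0.33, aligned them to GRCh38 with TopHat2 2.1.0 and counted reads per gene of GENCODE 25 with HTSeq, per the submitters' processing notes and the methods of the study, which also name DESeq2 1.12.3. The deposited values are raw counts for 58288 gene IDs per library, of which 57532 matched GENCODE 44 (99.75% of counts). Depth was 29988250 to 35562937 counts in the 6 libraries, and the spread between replicates, more than depth, limits the precision of most values.

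From these counts, the 6 plastic libraries were fitted with edgeR 4.0.16 (limma 3.58.1, R 4.3.3): TMM factors, filterByExpr with a minimum count of 10 and total of 15, robust quasi-likelihood F-tests, and Benjamini-Hochberg adjustment over all genes. SE is the log2 fold change over the root of F. The same fit was made on 3D, and the interaction was fitted on 12 libraries. The test was checked on simulated counts of 19062 genes. It recovered 31.3% of 67 genes changed 1.5-fold, 83.3% of 66 changed 2-fold and 98.5% of 66 changed 4-fold. Far fewer genes were changed there than differ between the lines, so the scaling under such a wide difference was not checked. Genes named by rule are those marked as key in the lists; the 15 largest and 15 smallest log2 fold changes among called coding genes that average at least 10 CPM in the higher line, do not overlap between the lines and are called the same way without any 1 library; per list and direction, 4 called genes ranked by adjusted p; and the 10 genes each way with the highest level among those with 0 counts in the other line. Others named in the report (among them DSP, DSG2, OCLN, CRB3, AP1M2, ESRP2, KLF5, GRHL1, PRRX1, COL6A2, HOXB7, HOXB9, HOXD8, MT-ND6 and genes of the runs) were chosen after their values were seen. The members and lists were chosen with earlier results of these data known. Alternatives were DESeq2 1.42.0, RLE factors, total counts, no filter, glmTreat, fits of 9 or 18 libraries, the close OVCAR8 pair as 1 library, no mitochondrial genes, each library left out and, added after the data were seen, a replicate block in the interaction. Of 1015 listed entries 5 had no gene ID. Genes of chromosome Y were left out. Some genes of the lists are not reported here.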

Additional observations from a re-analysis of the deposited data

Results flagged for a closer look

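The difference between the lines was itself tested between the cultures, as the log2 fold change of OVCAR8 over OVCAR4 on 3D minus the same on plastic, and 2035 genes passed. Among the list members called on plastic that passed the test in the opposite direction on 3D, it was 11.28 for OAS2, 9.97 for IFI44L, 7.23 for OAS1 and 6.05 for OAS3, of which the OAS genes encode sensors of double-stranded RNA. It was 5.93 for IFITM1, 5.92 for MX1, 5.45 for IFI27, 4.44 for PARP9, 4.00 for IFIH1, 3.54 for PSMB9, 3.25 for DTX3L, 3.01 for IFITM3 and 2.57 for BST2, all of them genes known to respond to interferon. FOXF2, a forkhead factor of mesenchyme, gave 3.18 at levels of 0.449, 0.538 and 0.862 CPM in OVCAR8 on 3D. These 14 genes passed without any 1 of the 12 libraries. All genes of this paragraph were picked for opposite directions in these same libraries, so such passes were close to fixed in advance. IL11, a cytokine of the IL6 family, gave -3.97 and passed in 4 of the 12 fits that left a library out (highest adjusted p = 0.0828), being 5.62 CPM in OVCAR4 replicate 42 on 3D and 44 and 49.6 CPM in the others. No group of 4 or more libraries exists here, so single libraries were not tested against their group.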

How the results depend on the processing

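No called result of the plastic comparison changed direction under any alternative. Of 4404 values of named genes under the alternatives, 4338 stayed on their side of the adjusted p of 0.05. Another 53 no longer passed it (30 of them under glmTreat, which asks for more than 2-fold) and 13 came to pass it. The 14582 genes that passed the test on plastic at any fold became 7174 under glmTreat. The interaction count of 2035 became 3076 with DESeq2. With a library left out it ranged from 759 to 3431: it was 759 without OVCAR8 plastic replicate 62, 783 without OVCAR4 3D replicate 4, 837 without OVCAR8 plastic replicate 4, 893 with OVCAR8 3D replicate 62 removed, 1039 with OVCAR8 3D replicate 61 removed, 903 without OVCAR4 3D replicate 6, 1311 without OVCAR8 plastic replicate 61 and 3431 without OVCAR4 plastic replicate 42. Its 520 genes at least 2-fold above 0 ranged from 307 to 848 and its 452 below 0 from 212 to 625. The cause was not tested. Of 990 list counts, 29 moved by more than 1.5 times, all of them counts of 11 or fewer. LAMA1 was not called without OVCAR4 plastic replicate 4 (adjusted p = 0.0673). Scaling by total counts alone moved the median over all genes by less than 0.1 on the log2 scale. Without a filter the median log2 fold change of chromosome 16 was -0.03, against 0.12 with it, and that of chromosomes 4 and 13 was 0.23 and 0.22. No replicate block could be fitted on plastic, where the lines share only the number 4. Within a line the 3D and plastic libraries share numbers, so the interaction was also fitted with a replicate block within each line. This alternative was chosen after seeing the data, and 3002 genes passed the test in it, 1991 of them among the 2035. All 15 list members with opposite directions in the cultures passed as well, which their selection from the same libraries made likely. The numbers were not taken as pairs: deviations from the group means of same-numbered libraries correlated over genes at -0.08 to 0.28, above 0.1 in 2 of 6 pairs, and 3 of the 6 3D libraries were closest to their own number.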

Other observations

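Kuramochi, the third HGSOC line of the study, was grown on plastic in the same way (3 libraries, passage 35 to 45) and gives a scale for the differences, with no test. For ZEB1 it stood near OVCAR8, with a mean of 20.2 CPM, and so did TWIST1 (8.48 CPM) and VIM (1769 CPM). Other EMT factors did not follow. ZEB2 averaged 2.57 CPM and TWIST2 0.643 CPM in Kuramochi, against 42.4 and 6.11 CPM in OVCAR8. SNAI1 (17.1 CPM) and PRRX2 (10.8 CPM) stood nearer to OVCAR4 (11.9 and 9.08 CPM). COL1A1 averaged 10.2 CPM in Kuramochi, also nearer to OVCAR4 (17.8 CPM) than to OVCAR8 (643 CPM). CDH1 (0.359 CPM), GRHL2 (0.0426 CPM) and MIR200CHG (0.0452 CPM) were low in Kuramochi as in OVCAR8. Müllerian genes were high in Kuramochi as in OVCAR4: PAX8 averaged 466 CPM, SOX17 218 CPM, EMX2 88.2 CPM, WFDC2 186 CPM and MECOM 126 CPM. WT1, near 0 in the other lines, averaged 42.0 CPM. The silent genes of OVCAR8 on chromosomes 1 and 3, GLUL (262 CPM) and PDCD10 (49.2 CPM), were present in Kuramochi. Low EPCAM (3.74 CPM) stood beside CLDN4 at 38.3 CPM.

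Imprinted genes were called higher in 5 (25%) and lower in 4 (20%) of 20, near the 22.2% and 25% of all genes. MAGEL2, which neighbours NDN on chromosome 15, stood at 3.96, 4.91 and 3.51 CPM in OVCAR8 with no count in OVCAR4, and both genes are expressed from the paternal copy. GRB10, an adaptor of the insulin receptor, was 19.4-fold lower, at 3.68, 3.33 and 3.25 CPM in OVCAR8 and 70.4, 60.2 and 68.0 CPM in OVCAR4. H19 and PEG3 lay under the filter in both lines. Some genes of other tissues were also expressed: LPL, lipoprotein lipase, stood at 50.3, 42.0 and 50.6 CPM in OVCAR8 with 2 counts in OVCAR4, and CDH5, the cadherin of endothelium, at 0.114, 0.129 and 0.0849 CPM in OVCAR8 and 40.1, 22.1 and 27.3 CPM in OVCAR4. Of the other adipocyte markers, ADIPOQ and FABP4 had no count in either line, and CIDEC did not pass the test (edgeR adjusted p = 0.963). Of the other endothelial markers, PECAM1 (34.6-fold) and VWF (8.78-fold) were also lower in OVCAR8. KDR was 6.30-fold higher, and CLDN5 and EMCN had no count in either line.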
